A study of Mus musculus with 6 samples.

Results

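The transcripts described here encode the proteins of the mitochondrial ribosome and were read in the RNA that came down with FLAG-tagged LIN28B in B cell progenitors. They were selected on their names and their input levels, as the rows named Mrpl or Mrps plus a number with a mean over the 3 input libraries of at least 1 FPKM (fragments per kilobase, scaled to the size of the library). All 78 rows with such a name, of 54752 rows in all, passed that level, so no member lies just outside it, and the lowest was Mrps27 at 8.67 FPKM, followed by Mrpl19 at 11.3 FPKM. Of the 78, 49 belong by name to the large subunit (Mrpl) and 29 to the small subunit (Mrps). Because the input levels served in the selection, they are given as a description.

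Bone marrow of adult mice, freed of adherent cells, was grown over 5 days with doxycycline (Dox) and 20 ng/mL of IL-7, and RNA was sequenced from the lysate (input) and from the anti-FLAG immunoprecipitate (IP). There were 2 tet-LIN28B mice and 1 littermate control, 6 libraries in all. The tet-LIN28B mice carry a Dox-inducible, FLAG-tagged human Lin28b cDNA in the Col1a locus together with the rtTA*m2 transactivator in Rosa26, and all cultures received Dox. The transgene is monoallelic, and control littermates in the study carry the rtTA*m2 allele alone (heterozygous). The control has no tagged protein, so its IP holds RNA that comes down without it. Enrichment is each mouse's FPKM in the IP over that in the input, and differences and tests use log2((IP + 1)/(input + 1)). FPKM are scaled to the size of each library, so a ratio is relative and not an amount bound. It is not exactly a ratio of shares, since summed FPKM differ between libraries. The sums were 1.32e+06, 1.36e+06 and 1.38e+06 in the inputs of tet-LIN28B mouse 1, mouse 2 and the control. In the matching IPs they were 1.26e+06, 1.23e+06 and 1.14e+06, so raw ratios are lowered most in the control. The depth per library is unknown, and with 1 control no spread between control mice could be measured.

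Mitochondrial ribosomes translate the few mRNAs encoded by mitochondrial DNA, all of which specify membrane subunits of the respiratory chain and the ATP synthase. Their rRNAs are made inside the organelle, whereas every ribosomal protein is encoded in the nucleus, translated in the cytosol and imported. LIN28B is a cytosolic and nuclear RNA-binding protein of fetal cells with a cold shock domain and a pair of zinc knuckles, and the knuckles recognise GGAG in let-7 precursors.

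The culture carried the markers of B cell progenitors. Summed over 10 such genes, the inputs held 6964 to 8198 FPKM, and none of the 10 was under 1 FPKM in all inputs. Markers of granulocytes and monocytes were present too, at 4645 to 7429 FPKM over 7 genes in the inputs and at 1669 to 2777 FPKM in the IPs, with their part in the results not tested. T cell, NK cell, erythroid and stromal or endothelial markers summed to at most 71.3 FPKM in any input, and the 3 megakaryocyte markers to between 439 and 807 FPKM. Fewer cells of a type and less RNA per cell cannot be told apart in such bulk cultures. Across 12576 genes, the log2(FPKM + 1) values of both tet-LIN28B IPs correlated at r = 0.970, those of the tet-LIN28B IPs with their own inputs at 0.860 and 0.885, and those of the control IP with its input at 0.951.

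Before the IP, mitochondrial ribosomal protein transcripts were abundant and their levels close between genotypes, most of them slightly lower in the tet-LIN28B inputs. Their median mean input was 105.9 FPKM, against 10.2 FPKM over all 12576 genes tested, and the highest were Mrps21 at 1870 FPKM and Mrpl33 at 891 FPKM. Together they made up 1.03% and 1.17% of the FPKM of the tet-LIN28B inputs and 1.17% of the control input. In the tet-LIN28B inputs 72 of 78 were below the control input, against 7084 of all 12576 genes. The median log2 difference was -0.15 against -0.04 for all genes. By limma on the inputs, 0 of 78 passed an adjusted p of 0.05 (0.0% of all genes tested did), and 1, Mrpl4, was under 0.05 before adjustment, as were 680 of all genes.

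In the tet-LIN28B IPs these transcripts took a smaller share than in the inputs. Their share was 0.659% and 0.779% in the IPs of tet-LIN28B mice 1 and 2 and 1.02% in the control IP. Summed FPKM gave IP/input ratios of 0.611 for tet-LIN28B mouse 1, 0.604 for mouse 2 and 0.720 for the control, so the control was also below 1 but above both tet-LIN28B mice. By limma, 47 of 78 were lower in the tet-LIN28B IPs than in their inputs and 10 were higher (adjusted p under 0.05), while 31.0% and 13.9% of all genes tested were lower and higher. The remaining 21 passed in neither direction. As the share of called genes rises with abundance, the same counts were taken among abundant genes. At 50 FPKM or more in mean input, 37 of 57 members were lower (64.9%) and 6 higher (10.5%), against 45.5% and 19.9% of the 2244 genes at that level.

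Single ratios were spread widely, and both tet-LIN28B mice ordered the transcripts alike. The log2 ratio ran from -3.86 to 1.41 in mouse 1, from -3.76 to 1.64 in mouse 2 and only from -0.999 to 0.54 in the control. Across the 78 transcripts the log2 ratios of mouse 1 and mouse 2 correlated at r = 0.956 (Spearman's rho 0.952), and those of each with the control at r = 0.476 and 0.508. These points share libraries, and so the correlation is a description over transcripts. An average ratio above 2 in the tet-LIN28B mice was seen for 4 members, Mrpl12, Mrps25, Mrpl9 and Mrps9, or 5.13%, against 9.75% of all genes. An average below 0.5 was seen for 36 members, or 46.2%, against 31.7% of all genes. In the control, 0 of 78 had a ratio above 2 and 2 had one below 0.5, against 916 and 756 of all 12576 genes. The control ratio was below 1 for 64 of 78, or 82.1%, against 45.9% of all genes, and against 66.4% of genes at 50 FPKM or more. These are ratios of raw FPKM, whose sum was lower in the control IP than in the control input.

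**Figure D1:**
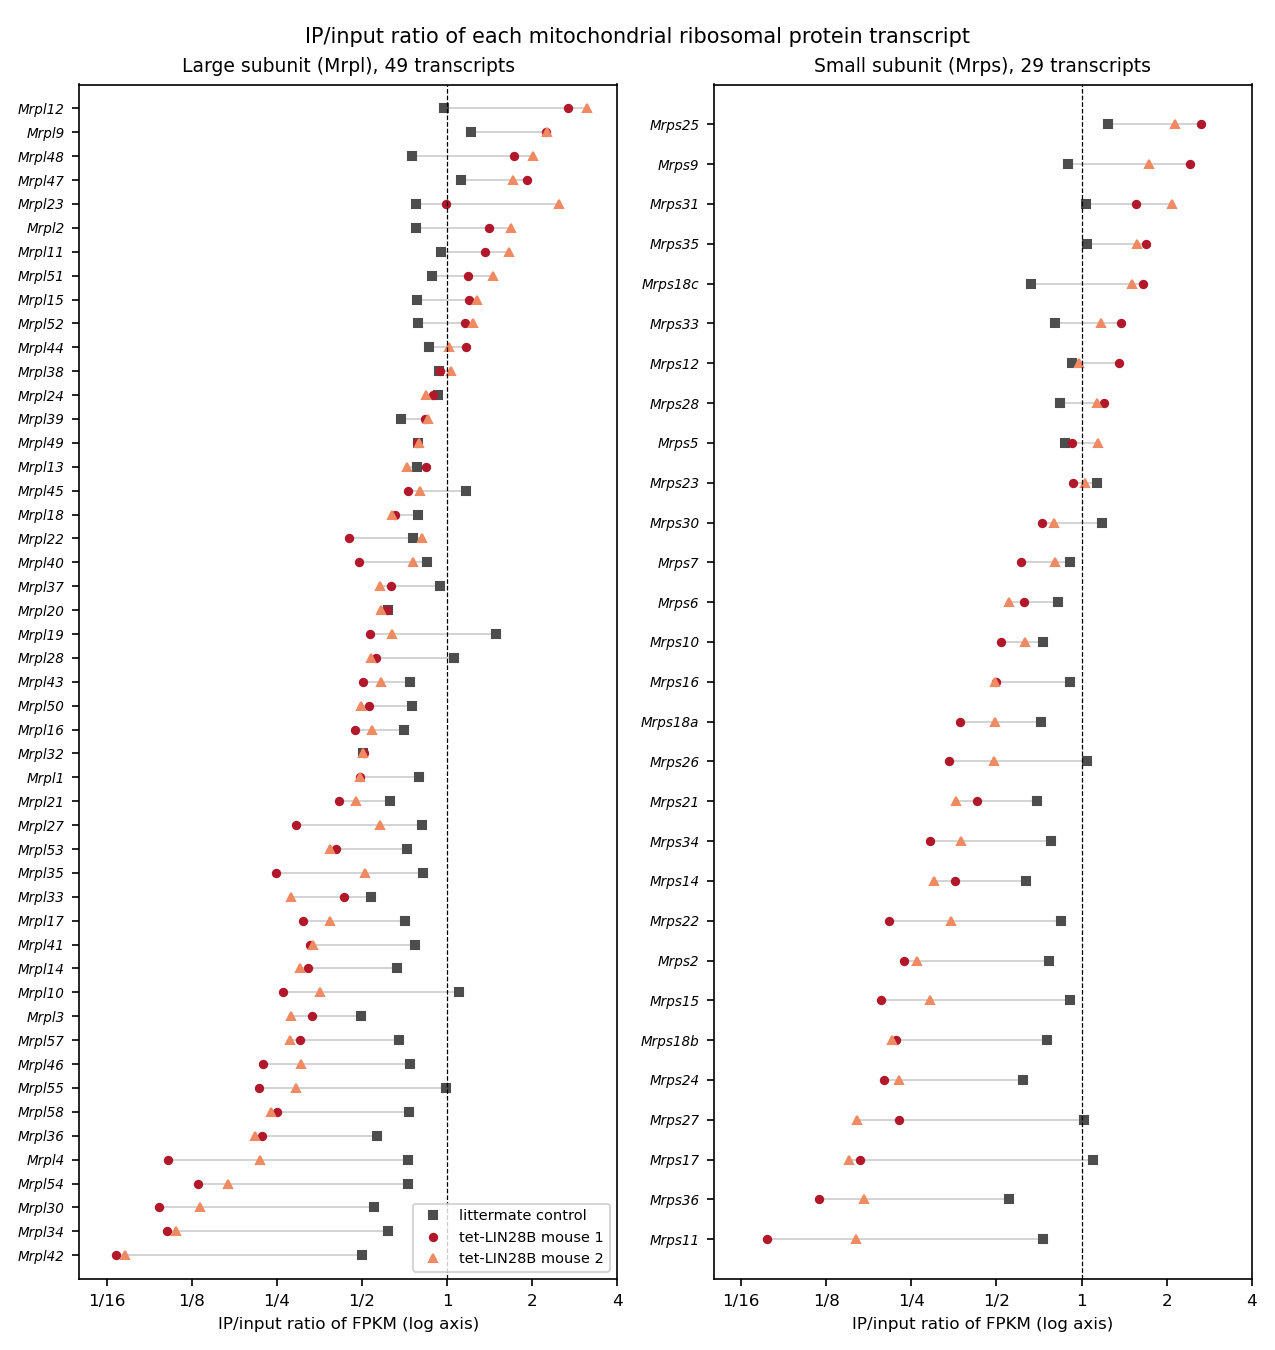
IP/input ratio of FPKM (log axis) of the 49 large subunit and 29 small subunit transcripts, ordered by the mean of both tet-LIN28B mice. Circles and triangles are tet-LIN28B mice 1 and 2, squares the littermate control, and grey lines join the 3 values; the control squares lie between 0.496 and 1.49, while the tet-LIN28B symbols run from 0.0672 for Mrpl42 to 3.13 for Mrpl12.

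Set against the control, the transcripts parted in both directions. Both tet-LIN28B ratios were below the control ratio for 52 of 78 (66.7%, against 59.7% of all genes) and above it for 23 (29.5%, against 23.8%), with 3 in between. The median log2 difference, tet-LIN28B minus control, was -0.59 for the 78 and -0.39 for all genes. By limma 5 were lower than in the control, Mrpl42, Mrps17, Mrpl34, Mrpl54 and Mrpl30, and 0 were higher (6.41% and 0% of the 78, against 2.53% and 0.382% of all genes). Before adjustment 31 were under 0.05 in the lower and 7 in the higher direction, or 39.7% and 8.97%, against 23.3% and 6.40% of all genes, so the share of higher members is near that of all genes. The adjusted p of the 5 lay between 0.043 and 0.049, and the count of lower members changed from 0 to 23 with the filter, the pseudocount and the way the spread was pooled. Over all genes that count changed from 0 to 1130 in the same settings. All 5 were at 100 FPKM or more in mean input, and all were also lower in the tet-LIN28B IP than in the input.

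**Figure D2:**
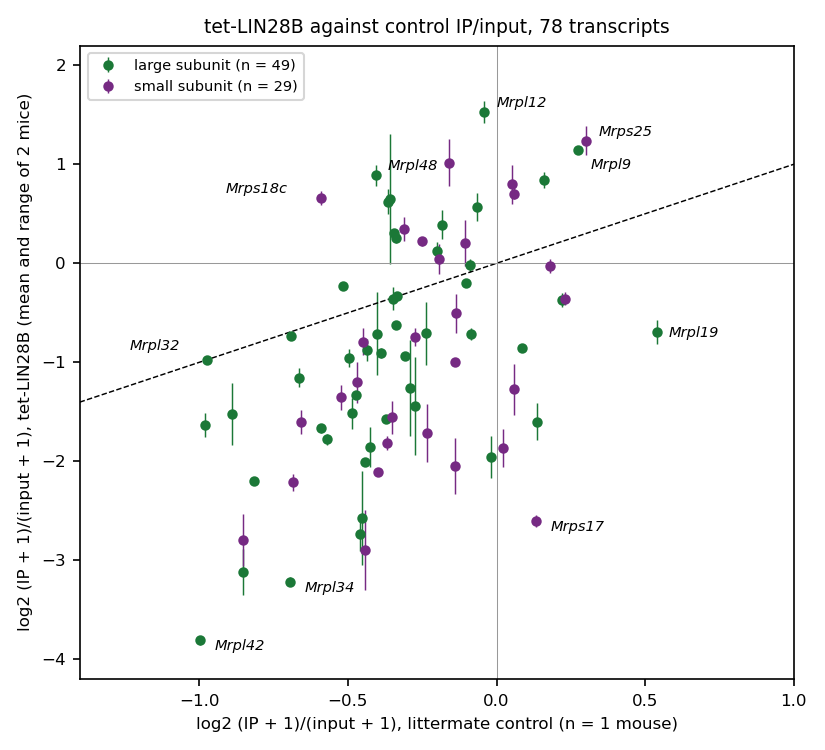
Log2 IP/input ratio with a pseudocount of 1 in the tet-LIN28B mice (mean of 2, bars to the value of each mouse) against that in the control, for 78 transcripts; the dashed line marks equal ratios and the axes differ in scale. Most points lie below the line, Mrpl12, Mrpl48 and Mrps18c lie farthest above it, and Mrpl32 lies on it with ratios of 0.507, 0.506 and 0.506.

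Among large subunit proteins, the lowest in the IP was Mrpl42, a protein with no bacterial counterpart. In the inputs of mouse 1, mouse 2 and the control its transcript reached 504, 669 and 682 FPKM, and in the matching IPs 33.9, 48.4 and 341 FPKM. The inputs were close, whereas both tet-LIN28B IPs were far below the control IP. The ratios were thus 0.0672 and 0.0723 against 0.4996, a log2 difference of -2.81 ± 0.27 (SE, 2 mice against 1, limma adjusted p = 0.0429). Mrpl34, the counterpart of bacterial L34, had 495, 609 and 647 FPKM in the inputs and 50.7, 66.7 and 399 FPKM in the IPs, in the same order of mice. Its ratios of 0.102, 0.110 and 0.617 gave a log2 difference of -2.52 ± 0.27 (limma adjusted p = 0.0429).

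Mrpl54, another protein without a bacterial counterpart, had ratios of 0.131 and 0.168 against 0.726 in the control, and Mrpl30, the counterpart of bacterial L30, had 0.0960 and 0.134 against 0.552. Their log2 differences were -2.27 ± 0.30 and -2.26 ± 0.33 (limma adjusted p = 0.0474 and 0.0487). For both transcripts the control ratio stood well above those of both tet-LIN28B mice. Mrpl4, which lines the exit tunnel, and Mrpl55 had larger distances between mice or smaller differences. Mrpl4 was at 0.103, 0.217 and 0.726 and Mrpl55 at 0.215, 0.292 and 0.988 in mouse 1, mouse 2 and the control, and neither passed (limma adjusted p = 0.0765 and 0.0532).

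The 2 large subunit transcripts farthest above the control encode a protein of the stalk and a protein of the central protuberance. Other members of both structures lay on both sides of the control. Mrpl12, the stalk protein through which elongation factors are recruited, was at 173, 180 and 186 FPKM in the inputs of mouse 1, mouse 2 and the control and at 462, 564 and 180 FPKM in the IPs. Both tet-LIN28B IPs exceeded their inputs, and the control IP did not. The ratios of 2.67, 3.13 and 0.972 gave a log2 difference of 1.57 ± 0.28, the largest positive value of the 78, which did not pass (limma adjusted p = 0.0596). Against the input alone the transcript was higher (log2 1.53 ± 0.16, adjusted p = 0.00475). Mrpl12 shares 13.1% of its exonic bases with Gm16755, and the reads carry no strand. The other stalk proteins were at 1.36, 1.65 and 0.955 for Mrpl11, at 0.262, 0.355 and 1.10 for Mrpl10, to which Mrpl12 binds, and at 0.491, 0.493 and 0.796 for Mrpl1 in its separate stalk. The 4 thus lay on both sides of the control, with 0 called against it and 1 under 0.05 before adjustment in each direction. Of all genes 2.53% were called lower and 0.382% higher, and 23.3% and 6.40% were under 0.05 before adjustment.

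In the central protuberance, Mrpl48 had 81.0, 99.7 and 100.2 FPKM in the inputs and 139.5, 200.01 and 75.4 FPKM in the IPs, a log2 difference of 1.29 ± 0.28 (limma adjusted p = 0.0729). Its neighbour Mrpl46 had ratios of 0.223, 0.304 and 0.740, a log2 difference of -1.43 ± 0.33 (limma adjusted p = 0.0787). Of the 6 proteins listed for that structure, both tet-LIN28B ratios were above the control for 2 and below it for 4, with a median log2 difference of -0.38. Of these 6, 0 passed against the control, with 1 under 0.05 before adjustment in each direction. Around the exit of the polypeptide tunnel, 9 listed members had a median log2 difference of 0.00, with 0 called and 1 lower before adjustment. With 2.53% and 0.382% of all genes called, and 23.3% and 6.40% before adjustment, counts among so few transcripts do not set a structure apart. Mrpl47, the counterpart of bacterial L29, was at 1.92, 1.71 and 1.12, Mrpl45, which holds the ribosome to the inner membrane, at 0.726, 0.804 and 1.17, and Mrpl32 was equal in all 3 mice. Mrpl23 was at 0.995 in mouse 1 and 2.49 in mouse 2, so the tet-LIN28B mice disagreed. Its row may share reads with Mrpl23-ps1, a pseudogene row at 627 FPKM in mean input against 56.6 FPKM for Mrpl23, and 11.8% of the 50-base stretches of Mrpl23 occur in other transcripts.

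Mrpl2, which lies close to the peptidyl transferase centre, and Mrpl9 were higher in the tet-LIN28B IP than in the input without passing against the control. Mrpl2 had ratios of 1.41, 1.69 and 0.773 and Mrpl9 of 2.23, 2.25 and 1.21, 0.99 ± 0.29 and 0.87 ± 0.27 above the control on the log2 scale (limma adjusted p = 0.109 and 0.122). The control ratio of Mrpl9 was itself above 1.

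In the small subunit 1 transcript passed against the control. Mrps17, an rRNA-binding protein with a bacterial counterpart, was at 109.9, 130.2 and 140.0 FPKM in the inputs and at 18.1, 19.6 and 153.7 FPKM in the IPs. Both tet-LIN28B IPs were far below their inputs, and the control IP was not. The ratios of 0.165, 0.151 and 1.10 gave a log2 difference of -2.74 ± 0.27 (limma adjusted p = 0.0429). Mrps11, a protein of the platform, was at 36.9, 46.2 and 51.5 FPKM in the inputs and at 2.85, 7.38 and 37.6 FPKM in the IPs. Its log2 difference of -2.45 ± 0.44 did not pass (limma adjusted p = 0.0587), and mice 1 and 2 differed more here than for Mrps17. Mrps11 and Mrpl46 lie head to head on chromosome 7 of GRCm38, on the plus strand from 78783119 to 78792989 and on the minus strand from 78775236 to 78783531, and their gene models overlap by 413 bases. Both transcripts were low in the tet-LIN28B IPs.

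Mrps15, the counterpart of bacterial S15, had ratios of 0.195, 0.292 and 0.908, and Mrps27 of 0.226, 0.160 and 1.02. Neither passed (limma adjusted p = 0.0606 and 0.0652), and in both the tet-LIN28B values were well below the control. On the high side, Mrps9, a protein of the head, was at 43.1, 42.7 and 52.4 FPKM in the inputs and 104.0, 73.8 and 46.8 FPKM in the IPs, a log2 difference of 1.17 ± 0.33 (limma adjusted p = 0.105). Mrps25, a protein without a bacterial counterpart, had ratios of 2.64, 2.14 and 1.24, but 69.8% of its exonic bases overlap Nr2c2, so its value is uncertain. Mrps31 was at 1.56, 2.08 and 1.04 with 12.03 FPKM in mean input.

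**Figure D3:**
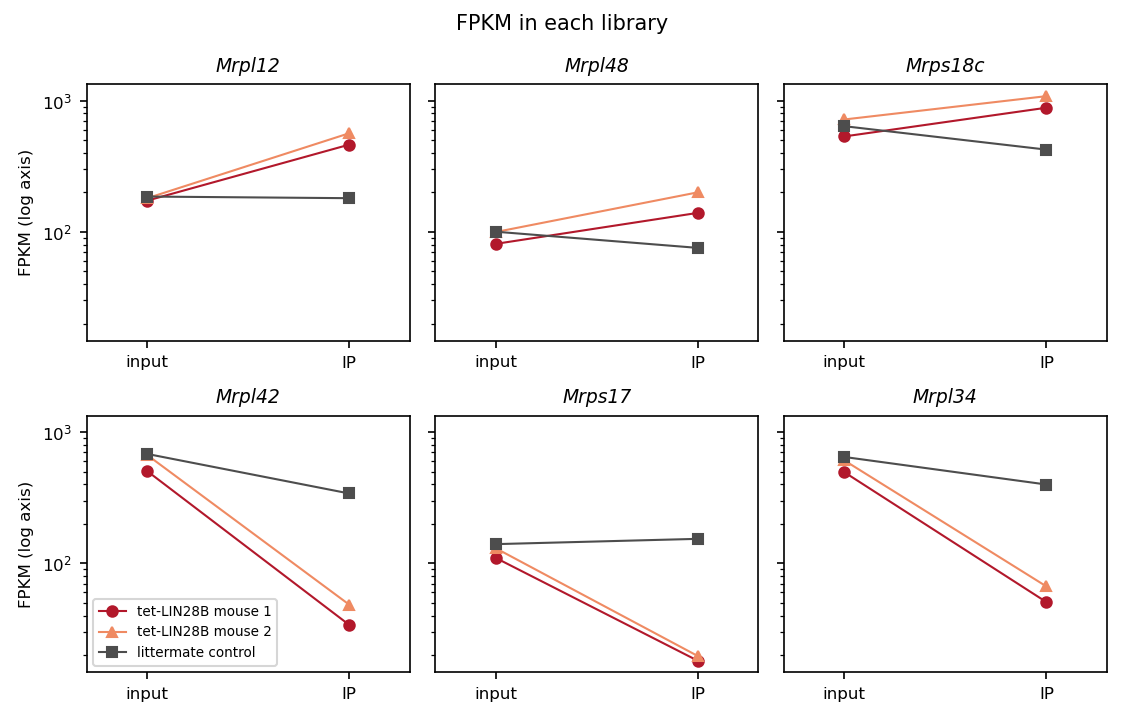
FPKM (log axis) of 6 transcripts in the input and the IP of each mouse, with lines joining the 2 libraries of a mouse. Mrpl12, Mrpl48 and Mrps18c rise from input to IP in both tet-LIN28B mice and not in the control, and Mrpl42, Mrps17 and Mrpl34 fall in both tet-LIN28B mice, while in the control Mrpl42 and Mrpl34 fall by less and Mrps17 does not fall.

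The 3 Mrps18 paralogs, which descend from a single bacterial protein, parted. Mrps18c had 533.5, 718 and 638.5 FPKM in the inputs and 883, 1082 and 423 FPKM in the IPs. It was higher in the tet-LIN28B IP than in the input (limma adjusted p = 0.0297), with ratios of 1.66, 1.51 and 0.663, but its log2 difference from the control of 1.25 ± 0.27 did not pass (limma adjusted p = 0.0739), and 23.2% of its exonic bases overlap Gm43511. Mrps18b was at 0.221, 0.213 and 0.755 (log2 difference -1.71 ± 0.28, limma adjusted p = 0.0532) and Mrps18a at 0.371, 0.496 and 0.720 (-0.73 ± 0.31, adjusted p = 0.206). The names do not place these proteins alike, since MRPS18A sits in the large subunit, as does MRPS30, whose transcript was at 0.725, 0.800 and 1.19. MRPS36 has been assigned to the 2-oxoglutarate dehydrogenase complex, and its transcript was among the lowest, at 0.118, 0.171 and 0.553 (log2 difference -1.95 ± 0.34, limma adjusted p = 0.0575), with 17.3% of its 50-base stretches shared with pseudogenes and other transcripts.

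Large and small subunit transcripts gave similar counts. Of the 49 large subunit transcripts 30 were lower and 5 higher in the tet-LIN28B IP than in the input (61.2% and 10.2%), and of the 29 small subunit transcripts 17 and 5 (58.6% and 17.2%). Of all genes 31.0% were lower and 13.9% higher. Against the control 4 and 1 were lower (8.16% and 3.45%, against 2.53% of all genes) and 0 and 0 higher (0.382% of all genes). The median log2 difference from the control was -0.52 for the large and -0.73 for the small subunit, and the middle 50% of values ran from -1.20 to 0.07 and from -1.48 to 0.31. The medians were 0.22 apart in the pooled data, but 0.075 and 0.14 apart when 1 of the tet-LIN28B mice was left out, and 0.064 apart when Mrps30 and Mrps18a were counted with the large subunit and Mrps36 left out. Summed FPKM gave the opposite order, with IP/input ratios of 0.538, 0.565 and 0.698 for the large and 0.713, 0.656 and 0.751 for the small subunit in mouse 1, mouse 2 and the control. Mrps21 alone holds 1870 FPKM of the small subunit's mean input. Its own ratios of 0.427, 0.358 and 0.696 were below those of the small subunit sum in each mouse. What sets the order of the sums was not tested. Transcripts of proteins with a bacterial counterpart had medians of -0.49 in the large (29 transcripts) and -0.65 in the small subunit (16), and those without one of -0.49 (18) and -0.21 (9). The other 6 members, Mrpl41, Mrpl55, Mrps18a, Mrps18b, Mrps30 and Mrps36, were placed in none of these 4 lists, so the 4 medians leave them out. All 6 had negative log2 differences from the control, as had 8642 of all 12576 genes.

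**Figure D4:**
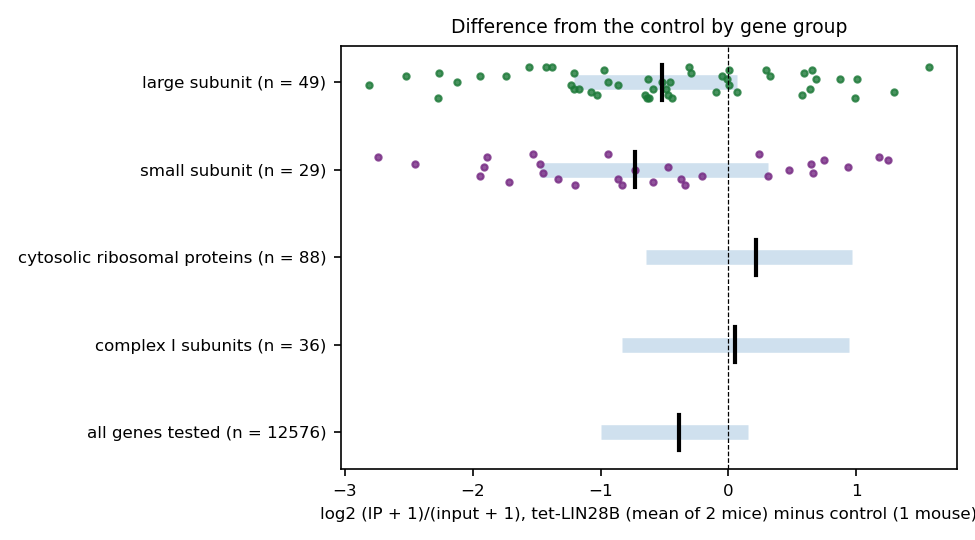
Log2 IP/input difference, tet-LIN28B minus control, with a pseudocount of 1; black ticks are medians, bars the middle 50% of transcripts, and points the single large and small subunit transcripts. The medians are -0.52 and -0.73 for both subunits, -0.39 for all genes tested, 0.21 for cytosolic ribosomal proteins and 0.05 for complex I subunits.

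The proteins of the cytosolic ribosome and of respiratory complex I, which is partly made by the mitochondrial ribosome, served for comparison. Of 88 cytosolic ribosomal protein transcripts, 25 (28.4%) rose and 28 (31.8%) fell from the input to the tet-LIN28B IP by limma. Of 36 complex I (Nduf) transcripts, 9 (25%) rose and 16 (44.4%) fell. Among all genes the shares were 13.9% and 31.0%, and among those at 100 FPKM or more in mean input 20.7% and 48.2%. Against the control, all genes had 0.382% called higher and 2.53% called lower. The counts there were 3 and 3 of the 88 (3.41% each), and 2 and 2 of the 36 (5.56% each). The difference between these groups and the mitochondrial ribosomal proteins was not tested, and their mean input levels differ, with medians of 2568 and 510 FPKM.

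The 5 mitochondrial ribosome proteins with other names were spread likewise. Aurkaip1 had ratios of 0.191, 0.176 and 0.728 and was lower than in the control (log2 difference -1.96 ± 0.27, limma adjusted p = 0.0474). Chchd1 was at 1.36, 1.62 and 0.637 (1.22 ± 0.28, limma adjusted p = 0.0810). Dap3, a GTPase of the small subunit, Ptcd3 and Gadd45gip1 lay between 0.568 and 1.04 in the tet-LIN28B mice. The rRNAs they bind are read here only as far as poly-A priming captured them. The small subunit rRNA mt-Rnr1 was at 1.06, 0.470 and 0.415, and the large subunit rRNA mt-Rnr2 at 0.129, 0.137 and 0.362, and the log2 difference was 0.76 ± 0.55 for the first and -1.44 ± 0.30 for the other (limma adjusted p = 0.404 and 0.0692).

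Among the factors that serve the mitochondrial ribosome, few passed against the control, as among all genes (2.53% lower and 0.382% higher). Of 10 translation factors 0 were called against the control. Before adjustment 3 were lower and 0 higher (30.0% and 0.0%, against 23.3% and 6.40% of all genes). Tufm, which brings aminoacyl-tRNA to the ribosome, was at 0.319, 0.549 and 1.22, its exchange factor Tsfm at 2.23, 1.13 and 1.41, the translocase Gfm1 at 0.801, 0.972 and 1.21, and the initiation factor Mtif2 at 0.684, 1.07 and 1.21. Of 22 assembly factors 1, Mterf3, was lower (log2 difference -2.07 ± 0.29, limma adjusted p = 0.0486). Before adjustment 5 of them were lower and 0 higher (22.7% and 0.0%). Of 16 aminoacyl-tRNA synthetases tested 0 were called by limma, with 2 under 0.05 before adjustment in each direction (12.5%).

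Several features of the transcripts that the selection did not use were read from GENCODE M21 models of the same genome build, with 1 coding model for each of the 78. The mRNAs were short, with a median of 1302 bases against 2828 for the 10283 tested genes with 1 coding model. GGAG was counted on the mRNA strand, overlapping matches included. Almost every mRNA holds it, 76 of 78 members and 99.8% of all genes, so its presence separates little. Coding sequences of members held a median of 4 and those of all genes 11, but they differ in length (medians of 582 and 1275 bases), and per kilobase the medians were 7.81 and 8.24. In their coding sequences, with a median of 405 bases, the 5 transcripts lower than the control held 0 to 2, with a median of 4.17 per kilobase. Over the whole mRNA they held 1 to 31, and 28 of the 31 in Mrps17 lie in the 3' untranslated region. Other members had as few and lay on both sides of the control. Of these, Mrpl11 and Mrps33, with 1 and 2 matches in their coding sequences, were above it. For the 8 members at the ends of the range, the 90 coding bases densest in GGAG are shown, with GGAG in capitals, from the mRNA strand of GRCm38, to set the highest beside the lowest.

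Mrpl12: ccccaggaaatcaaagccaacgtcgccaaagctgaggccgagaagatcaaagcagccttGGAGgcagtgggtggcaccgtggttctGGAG
Mrpl48: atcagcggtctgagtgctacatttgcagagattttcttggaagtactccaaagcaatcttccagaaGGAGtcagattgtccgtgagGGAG
Mrps18c: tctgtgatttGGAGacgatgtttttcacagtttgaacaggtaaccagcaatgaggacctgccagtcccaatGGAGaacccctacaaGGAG
Mrps9: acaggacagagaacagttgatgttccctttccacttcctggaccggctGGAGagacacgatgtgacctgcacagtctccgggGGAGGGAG
Mrpl42: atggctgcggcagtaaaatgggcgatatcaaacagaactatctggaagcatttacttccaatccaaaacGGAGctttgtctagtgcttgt
Mrps17: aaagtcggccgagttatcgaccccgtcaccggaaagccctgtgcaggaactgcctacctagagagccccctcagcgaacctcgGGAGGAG
Mrpl34: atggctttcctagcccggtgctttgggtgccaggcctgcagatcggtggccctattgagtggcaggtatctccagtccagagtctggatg
Mrps11: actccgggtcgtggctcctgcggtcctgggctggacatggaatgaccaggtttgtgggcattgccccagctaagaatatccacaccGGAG

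The first 4 had the largest positive log2 differences from the control, none of which passed, and held 2, 2, 3 and 3 matches in these stretches. The last 4 had the largest negative ones, of which that of Mrps11 did not pass, and held 1, 2, 0 and 1. Their coding sequences differ in length, with 603, 633, 429 and 1170 bases in the first 4 and 426, 360, 276 and 573 in the last 4. A longer sequence offers more stretches to choose from, and none were drawn for the other members. The stretches lie at Mrpl12 chr11:120488342-120488431 (plus strand), Mrpl48 chr7:100550540-100550629 (minus strand), Mrps18c chr5:100799554-100801937 (plus strand, spliced), Mrps9 chr1:42899541-42903375 (plus strand, spliced). Those of the last 4 lie at Mrpl42 chr10:95496865-95500449 (minus strand, spliced), Mrps17 chr5:129718051-129718140 (plus strand), Mrpl34 chr8:71465003-71465274 (plus strand, spliced), Mrps11 chr7:78783375-78783613 (plus strand, spliced). The coding sequence of Mrpl34 has no GGAG, nor have those of Mrps36 and Mrpl33, whose whole mRNAs also lack it. A match is not a binding site, and nothing follows from these letters about LIN28B.

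Across the 78 transcripts the number of GGAG in the coding sequence and the log2 difference from the control correlated at r = 0.32 (Spearman's rho 0.34), and across the 10283 genes at r = 0.06 (rho 0.11). With coding length the correlations were 0.19 and 0.13, and with GC content of the mRNA -0.12 and -0.31. Among the 53 members with little shared sequence or exonic overlap, the value was 0.39 for the GGAG count, 0.36 for coding length and 0.24 for GGAG per kilobase of coding sequence. These correlations are over transcripts, which share libraries and are no independent replicates, and longer sequences hold more matches. Per kilobase of coding sequence, the value was 0.30 over the 78 and 0.02 over all genes.

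Reads of 25 of the 78 transcripts may be shared with another gene, since over 10% of their 50-base stretches recur elsewhere or over 10% of their exonic bases overlap another gene. Besides those given above, Mrps18b (30.5%), Mrps27 (24.2%), Mrpl47 (24.2%) and Mrpl10 (14.1%) have such an overlap, and Mrpl48 shares 13.7% of its 50-base stretches. Leaving all 25 out, 32 of 53 were lower and 5 higher in the tet-LIN28B IP than in the input, and 5 lower and 0 higher than in the control, with a median log2 difference of -0.59. As shares these were 60.4% and 9.43% against the input, where all genes had 31.0% and 13.9%. Against the control they were 9.43% and 0%, where all genes had 2.53% and 0.382%. The members were also divided by abundance. Among the 39 members at 100 FPKM or more in mean input 28 were lower and 3 higher against the input (71.8% and 7.69%, against 48.2% and 20.7% of all genes at that level). Among the other 39 there were 19 and 7 (48.7% and 17.9%), and the share of all genes under 100 FPKM was not taken. The medians against the control were -0.86 for members at 100 FPKM or more and -0.46 for the others. All genes at 100 FPKM or more had a median of -0.34. Over all 78 members, log2 input level and the log2 difference from the control correlated at r = -0.10, with -0.26 in the large and 0.11 in the small subunit.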

How the data were processed

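Inputs and anti-FLAG IPs from 2 tet-LIN28B mice and their control littermate (1) were reverse transcribed with SMART-Seq v4, which keeps no strand. Per the labels and the methods, the authors aligned reads with STAR 2.7.1 to mm10 and quantified genes with RSEM 1.28, and they deposited FPKM; no annotation release is given in the sources used. FPKM carry no counts, so no counting interval is given. Samples were grouped by title, which the column names match, although the last line of each description names the other fraction. The labels call the tet-LIN28B samples biological replicates, and the study's text in 1 place technical ones, so p-values measure only the spread between these samples.

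All 12576 genes averaging 1 FPKM or more over the inputs were tested on log2((IP + 1)/(input + 1)) of each mouse with limma 3.58.1 in R 4.3.3, with genotype as the factor, a trend on mean expression and Benjamini-Hochberg adjustment at 0.05. Each gene left 1 residual degree of freedom, to which moderation across genes added 3.56, and the single control was taken to have the same spread as the tet-LIN28B mice. The ratio pairs each IP with the input of its own mouse; over all genes, the input difference between mouse 1 and mouse 2 and their IP difference had r = 0.132. The rule named, at 10 FPKM or more in mean input, the 10 strongest rises and 10 strongest falls relative to the control. It also named the extremes of each subunit's ratio, Mrpl12, Mrps25, the Mrps18 paralogs, Mrps30, Mrps36 and the lowest member. The other members named (Mrpl1, Mrpl10, Mrpl11, Mrpl19, Mrpl32, Mrpl41, Mrpl45, Mrpl46, Mrps21, Mrps33, Mrpl33), Mterf3 and Mrpl23-ps1 were picked outside the rule, with their values known. The members and gene lists were chosen with earlier results of these data known. Motifs and overlaps were counted in Python 3.11.15 in GENCODE M21 models. Left out were GO terms and the study's other assays, which were not analysed here.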

Additional observations from a re-analysis of the deposited data

Results flagged for a closer look

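Against the same contrast of IP and input, the tet-LIN28B mice and the control differed for 5 transcripts by limma, whose test is that of the difference itself. The log2 differences were -2.81 for Mrpl42, -2.74 for Mrps17, -2.52 for Mrpl34, -2.27 for Mrpl54 and -2.26 for Mrpl30, lower in 2 of 2 tet-LIN28B mice in each case. By subunit, 4 large subunit and 1 small subunit transcripts were lower, and 0 and 0 were higher, with 4 large and 3 small subunit transcripts higher and 17 and 14 lower at an unadjusted p under 0.05 (8.16% and 10.3% higher and 34.7% and 48.3% lower, against 6.40% and 23.3% of all genes). With groups of 2 and 1, no test for single outlying samples could be run.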

How the results depend on the processing

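The 10 members higher and 47 lower in the tet-LIN28B IP than in the input stayed within 1.5 times these counts (8 to 15 and 40 to 48) in all alternatives but these. With no filter on low genes 0 members were higher and 0 lower, as were 0 of all 26505 genes in each direction. With the methods' filter of 50 FPKM in each of the 4 tet-LIN28B libraries, which tests 33 members, 17 were lower. Under that filter 512 of all 1460 genes tested were lower. The count lower than the control, 5, became 0 with a pseudocount of 0.5, with no filter, without the trend and with no replicate block (IP and input not paired by mouse), 13 with a pseudocount of 5, 10 with the methods' filter, 23 when 10 FPKM were asked of the inputs, 12 with TPM scaling and 3 with median centring. Lower were thus 13 of 78, 10 of 33, 23 of 77, 12 of 78 and 3 of 78 members. Over all genes these were 764 of 12576, 324 of 1460, 1130 of 6347, 668 of 12576 and 188 of 12576, and 0 wherever members had 0. The count higher, 0, became 1 with a pseudocount of 5 (Mrpl12), 6 with the methods' filter and 3 when 10 FPKM were asked of the inputs (Mrpl12, Mrpl48 and Mrps18c). Higher were thus 1 of 78, 6 of 33 and 3 of 77 members, against 176 of 12576, 339 of 1460 and 300 of 6347 genes. The main 5 were all among the 23, the 13 and the 12, and 2 of them among the 10. The cause of these changes was not tested, except that fewer genes or members are tested under a stricter filter. Of the 24 members named by rule, 0 reversed under the alternatives in which they were tested, which were 8 members for the methods' filter, 23 for 10 FPKM in the inputs and all 24 for the others.

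With the methods' filter 2 of 33 members had an average ratio above 2 and 11 one below 0.5, against 4 and 36 of 78. The shares of all genes under that filter were not taken here. Of the 78, 4 to 6 and 35 to 39 had such ratios when 1 mouse was left out. The median difference from the control of the large subunit moved from -0.52 to -0.45 (pseudocount 5), -0.19 (methods' filter), -0.67 (TPM) and -0.18 (centring), and was -0.56 and -0.49 with 1 mouse left out. That of the small subunit moved from -0.73 to 0.31 (methods' filter, reversed), -0.90 (TPM) and -0.39 (centring), and was -0.70 and -0.56 with 1 mouse left out. The methods' filter asks 50 FPKM of the IP itself and so removed 11 large and 10 small subunit members that had passed it in both tet-LIN28B inputs. The distance between the medians, 0.22, became -0.50 (methods' filter, reversed), 0.14 (at least 10 FPKM) and 0.064 (by place of the protein), and 0.075 to 0.14 with 1 mouse left out. TPM scaling and centring moved the median difference of all genes from -0.39 to -0.51 and -0.05, so that members lay 0.20 to 0.23 below it in each.

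Leaving out 1 tet-LIN28B mouse leaves no residual degrees of freedom, so counts of calls could not be had there. With 1 control mouse and unknown depth, small differences from the control were not detectable.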
